A study of Mus musculus with 7 samples.

Results

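The miR-181 family was read in the mouse hippocampus through its 4 guide products, miR-181a, miR-181b, miR-181c and miR-181d, which are the mature miRNAs that give the family its names. The members were all sequences that the deposited tables name with the stem 181a, 181b, 181c or 181d and no arm mark, that is mmu-miR-181a, mmu-miR-181b, mmu-miR-181c and mmu-miR-181d (the prefix for mouse is left out below). These are 4 of the 756 distinct mature miRNA sequences in the deposited values, at 6 of 806 mature loci. The 6 products of the opposite arm of the same hairpins, which carry an asterisk in the deposited names, were followed alongside.

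The 7 small RNA libraries were made from pooled hippocampi of adult C57BL/6 mice aged 3 to 5 months. The study asked which miRNAs change when nuclear protein phosphatase 1 (PP1) is inhibited and when mice learn. The transgenic NIPP1* mice carry the PP1-binding part of a nuclear PP1 inhibitor, fused to EGFP, behind a tetO promoter. A transactivator under the CaMKIIalpha promoter, active in forebrain neurons, switches it on when the chow holds doxycycline, so other cell types of the tissue are not targeted. Whether control mice ate the same chow is not given in the sources used here. By their labels, library 1 is untrained wildtype (here non-trained control) and library 2 is untrained NIPP1* (non-trained NIPP1*). Libraries 3, 4 and 5 are trained wildtype (trained control), and libraries 6 and 7 are trained NIPP1*. Trained mice had learned an object recognition task, and non-trained mice had only been placed in its chamber. The methods describe male mice and littermate controls. The labels do not say which mice went into which pool, so the p-values below measure the spread between these libraries only, and small RNA reads do not show the transgene.

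miRNAs are cut from hairpin transcripts by Drosha and Dicer. One strand of the resulting duplex, the guide, is loaded into Argonaute, while the opposite arm is mostly degraded. The guide finds its target mRNAs chiefly through its seed, bases 2 to 8 from the 5′ end, so guides with the same seed share many targets. The miR-181 family is known for setting the sensitivity of the T-cell receptor in thymocytes. In neurons, miR-181a is known as a regulator of the AMPA receptor subunit GluA2.

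The mature sequences are shown because the whole family has a single seed and its members differ only behind it. They are the mouse entries of RefSeq (GRCm38.p6), 5′ to 3′, with the seed in capitals.
miR-181a: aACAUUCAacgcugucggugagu
miR-181b: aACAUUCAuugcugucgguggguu
miR-181c: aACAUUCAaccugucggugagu
miR-181d: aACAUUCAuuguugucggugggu
Of 1679 mature mouse names in RefSeq, these 4 hold this seed, and no other of the 756 sequences in the deposited values holds it on either strand. Counted from the 5′ end, miR-181a differs from miR-181b by A9U, C10U and A21G, besides the last base of miR-181b. miR-181b differs from miR-181d by C12U alone, apart from that last base. miR-181c aligns to miR-181a with 22 identical bases and 1 gap. By sequence, miR-181a and miR-181c form one pair and miR-181b and miR-181d the other.

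The opposite arms do not share that seed. The 4 printed here are those of the chromosome 1 and chromosome 8 hairpins, again with bases 2 to 8 in capitals, since their levels are set against the guides below.
miR-181a-1*: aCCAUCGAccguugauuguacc
miR-181b-1*: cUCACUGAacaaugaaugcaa
miR-181c*: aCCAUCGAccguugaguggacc
miR-181d*: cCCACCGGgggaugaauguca
miR-181a-1* and miR-181c* share bases 2 to 8 (CCAUCGA), just as their guides share theirs.

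The 4 guides come from 6 hairpins in 3 clusters, each with one hairpin of the miR-181a and miR-181c pair and one of the miR-181b and miR-181d pair. In the build of the files (mm9) with the GENCODE M1 annotation, Mir181a-1 lies at chr1:139863032-139863118 and Mir181b-1 at chr1:139863216-139863295, both on the plus strand and 97 bp apart. No other annotated gene overlaps them, and the nearest coding gene, A130050O07Rik, is 36182 bp from Mir181a-1. Mir181a-2 at chr2:38708255-38708330 and Mir181b-2 at chr2:38709350-38709438 lie 1019 bp apart on the plus strand, within an intron of Nr6a1, a nuclear receptor gene on the minus strand. Mir181c at chr8:86702762-86702867 and Mir181d at chr8:86702615-86702686 are on the minus strand, 75 bp apart, outside any other annotated gene and 2164 bp from Nanos3 at the nearest.

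miR-181a and miR-181b thus have a copy on chromosome 1 and another on chromosome 2, and the deposited values give a level for each copy. The values are percentages of the miRNA reads of a library, written here as reads per 1000000 miRNA reads (RPM). Summed over all loci they came to between 170% and 174% of the miRNA reads, and with each sequence counted once, as the mean of its copies, to 100% in every library, so each copy carries the reads of the whole sequence. Levels below are therefore means over copies, and a mature read of miR-181a cannot be assigned to a hairpin.

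The copies of miR-181a had the same value in all 7 libraries. Those of miR-181b did not, although the deposited 23-base windows are identical. In library 1 the chromosome 2 copy had 2595 RPM, against 2464 RPM for the chromosome 1 copy. The chromosome 2 copy was the higher one in 7 of 7 libraries, by 5.24% ± 0.56 (SD, n = 7), with libraries between 4.8% and 6.17%. The genomic sequence at both copies is shown from the first base of the guide, on the plus strand, with capitals where the copies differ.
Mir181b-1, chr1:139863227-139863256: aacattcattgctgtcggtgggttGAaCtg
Mir181b-2, chr2:38709365-38709394: aacattcattgctgtcggtgggttTGaAtg
The first difference is at base 25, behind the last base of the mature miRNA, and the reads kept were 19 to 26 nt long. The part of reads that run past the mature end in this gap was not tested, since the deposited values hold no read ends.

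Each library held between 7285260 and 10017730 miRNA reads, worked out from the step between low values, so that 1 read was worth between 0.0998 and 0.137 RPM. The rarest guide, miR-181d, still had at least 2669 reads in a library. Intervals built on these reads describe counting error and no more, because PCR copies of a molecule are not separate molecules.

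The family took 1.52% ± 0.21 (SD, n = 7) of the miRNA reads, from 1.27% in library 3 to 1.84% in library 5. miR-181a made up most of it, with 76.5% ± 2.5 of the family sum, followed by miR-181b with 15.6% ± 1.1, miR-181c with 5.33% ± 1.21 and miR-181d with 2.54% ± 0.48 (SD, n = 7). By mean level among the 756 sequences, miR-181a ranked 18, miR-181b 48, miR-181c 75 and miR-181d 114. The order of the guides was the same in 7 of 7 libraries, and no neighbours in that order overlapped in their ranges.

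The non-trained libraries 1 and 2 held miR-181a at 10720 and 10520 RPM. It was at 9529, 13730 and 14660 RPM in the trained control libraries 3, 4 and 5, and at 12150 and 10180 RPM in the trained NIPP1* libraries 6 and 7. The trained control libraries thus held both the lowest and the 2 highest values of the series, and the other groups lay within their range. Its residual SD within groups was 0.29 on the log2 scale, where 73.3% of the 476 miRNAs tested had a smaller one and the median was 0.20.

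miR-181b had 2530 and 2188 RPM in libraries 1 and 2, 1955, 2422 and 2775 RPM in libraries 3 to 5, and 2380 and 2263 RPM in libraries 6 and 7. As with miR-181a, library 3 was the lowest and library 5 the highest, and the groups overlapped in both comparisons of trained control libraries. The trained NIPP1* libraries both lay above the non-trained NIPP1* library.

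miR-181c ran the other way among the trained control libraries, with 863 RPM in library 3 and 676 and 658 RPM in libraries 4 and 5. It was at 844 and 900 RPM in libraries 1 and 2, and at 800 and 774 RPM in libraries 6 and 7. Libraries 4 and 5, the highest for miR-181a, were the lowest for miR-181c.

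miR-181d was the steadiest guide within the labelled groups, with a residual SD of 0.08 on the log2 scale, where 9.03% of the miRNAs tested had a smaller one. Over all libraries it was not, as its highest level was 1.37 times its lowest, the same as for miR-181c. Library 1 had the highest value, 453 RPM, and library 2 had 375 RPM. The trained control libraries lay close together at 347, 330 and 357 RPM, below every other library, and the trained NIPP1* libraries were at 366 and 412 RPM.

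**Figure D1:**
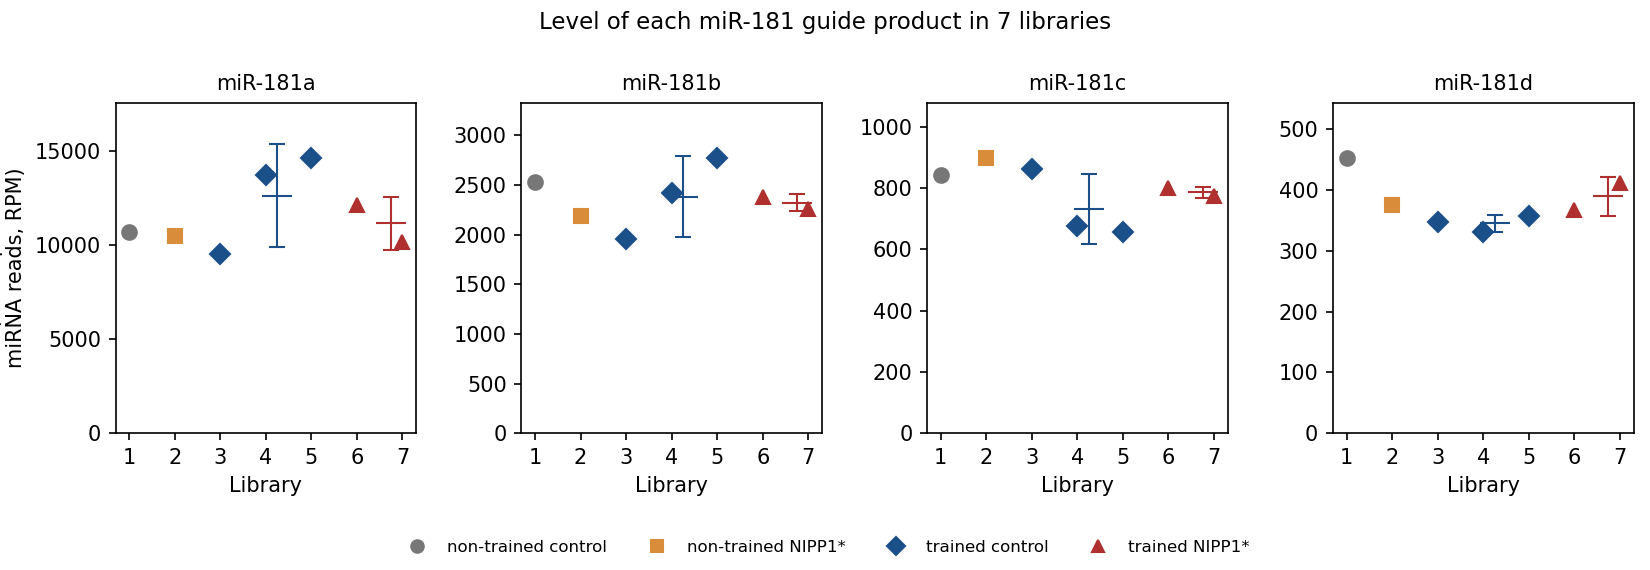
Level of the 4 guide products in RPM (y axis, from 0, a separate scale for each miRNA) in libraries 1 to 7 (x axis), with a marker for each library by group and, for the trained groups, the mean and SD beside the points (n = 3 trained control, n = 2 trained NIPP1*). Libraries 4 and 5 are highest for miR-181a, at 13730 and 14660 RPM, and lowest for miR-181c, at 676 and 658 RPM.

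The groups follow the labels, and 1 limit touches every direction between trained groups. The authors deposited a mean of each trained group in a table of training within its genotype. These means were rebuilt from the libraries over 318 miRNAs. The means in their separate table of trained NIPP1* against trained control were not used for this. The mean named for trained NIPP1* was rebuilt by libraries 3, 4 and 5 within a root mean square error of 0.00608%, against 16.9% for libraries 6 and 7. The mean named for the trained control was rebuilt by libraries 6 and 7 within 0.00823%, against 15.2% for libraries 3, 4 and 5. These means thus place the trained genotypes the other way round from the labels, and which assignment holds cannot be told from the files.

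Products of one cluster can be cut from one primary transcript, so their ratios were followed from library to library. The ratio of miR-181a to miR-181b lay between 4.24 in library 1 and 5.67 in library 4, with an SD of 0.14 on the log2 scale over the 7 libraries. The ratio of miR-181c to miR-181d lay between 1.84 in library 5 and 2.49 in library 3, with an SD of 0.18. For both pairs the largest ratio was at most 1.35 times the smallest. miR-181c and miR-181d come from a single cluster, whereas miR-181a and miR-181b each pool the chromosome 1 and chromosome 2 clusters.

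Ratios between guides of different clusters varied more, by little for miR-181b to miR-181d and by a wider margin for the other pairs. The SD on the log2 scale was 0.33 for miR-181a to miR-181d and 0.31 for miR-181b to miR-181c. Their largest ratios were 1.76 and 1.86 times the smallest. miR-181a stood at 11 to 15.2 times miR-181c in libraries 1, 2, 3, 6 and 7, and at 20.3 and 22.3 times in libraries 4 and 5. The SD of this ratio over the 7 libraries was 0.39 on the log2 scale, and the largest was 2.02 times the smallest. The ratio of miR-181b to miR-181d, the other sequence pair, was also highest in libraries 4 and 5, at 7.33 and 7.76, against 5.5 to 6.5 in the rest. Its SD was 0.20 on the log2 scale and its largest value 1.41 times the smallest, close to those of miR-181c to miR-181d. Libraries 4 and 5 carry the same label as library 3, which lay among the others for miR-181a to miR-181c and for miR-181b to miR-181d. No test was made between these libraries, which share a group.

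**Figure D2:**
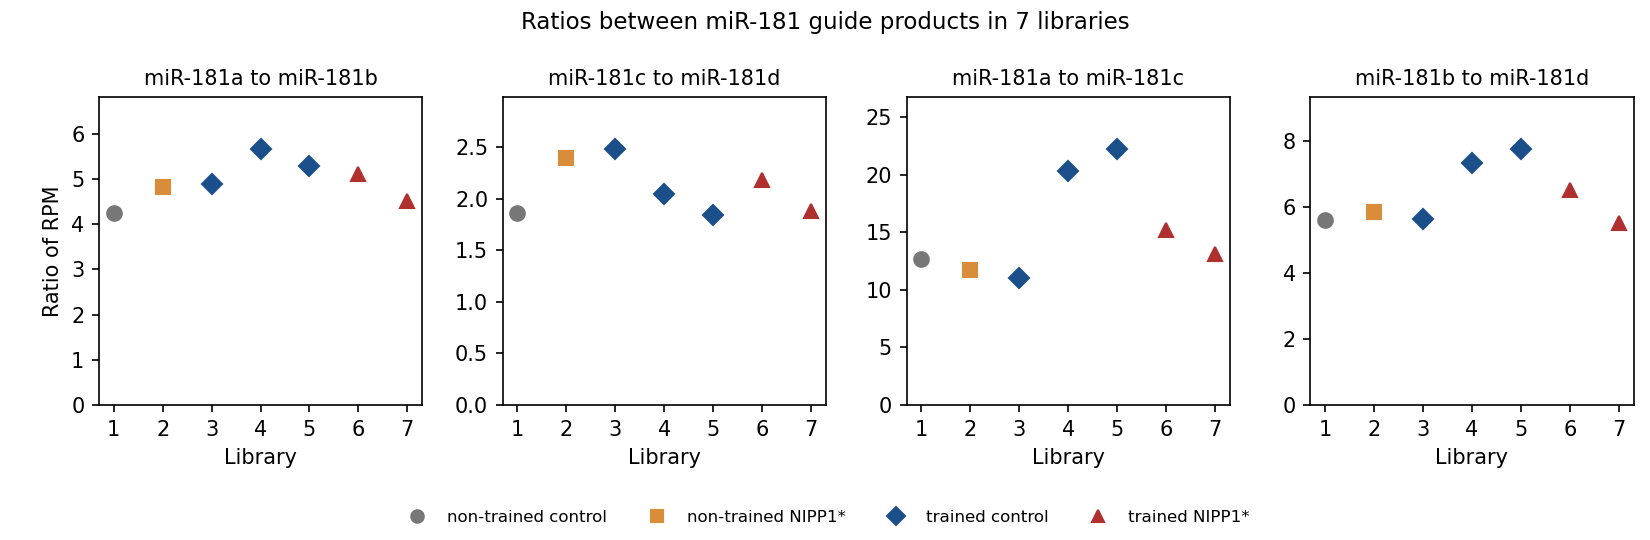
Ratio of RPM (y axis, from 0) between guide products in libraries 1 to 7 (x axis), with guides that lie beside each other in the genome in the first 2 panels (miR-181a and miR-181b pooled over their 2 clusters) and pairs from different clusters in the last 2. In the panel of miR-181a to miR-181c, libraries 4 and 5 sit at 20.3 and 22.3 and the other 5 libraries between 11 and 15.2.

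The opposite arms were rare for all guides but miR-181c. Of the guide and opposite-arm reads together, the opposite arm took 11.1% ± 0.8 for miR-181c, 1.16% ± 0.25 for miR-181a, 0.285% ± 0.069 for miR-181b and 0.19% ± 0.044 for miR-181d (SD, n = 7). The share for miR-181c lay between 9.95% and 11.9% in every library, above the 1.42% that was the highest for any other member. The guides with the highest and the lowest mean share, miR-181c and miR-181d, come from the same cluster, and the shares of miR-181a and miR-181b pool both hairpins of each.

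miR-181c* reached 97.9 RPM ± 13.3 (SD, n = 7), beside 132 RPM ± 15 for miR-181a-1*, although its guide was far rarer than miR-181a. miR-181c* stood at 104 and 121 RPM in libraries 1 and 2, at 95.4, 78.5 and 88.4 RPM in libraries 3 to 5, and at 95.4 and 103 RPM in libraries 6 and 7. miR-181a-1* stood at 139 and 151 RPM in libraries 1 and 2, at 122, 104 and 135 RPM in libraries 3 to 5, and at 134 and 142 RPM in libraries 6 and 7. Neither opposite arm was higher in libraries 4 and 5 than in every other library. Library 4, which had the second highest level of miR-181a, had the lowest of miR-181a-1*.

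The opposite-arm share of miR-181a was 0.755% (exact binomial 95% interval 0.706% to 0.806%) in library 4 and 0.914% (0.86% to 0.97%) in library 5. The other libraries were between 1.09% and 1.42%. These intervals cover counting error only. For miR-181b the same 2 libraries had the lowest shares, 0.207% and 0.17%, against 0.299% to 0.36% in the rest.

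**Figure D3:**
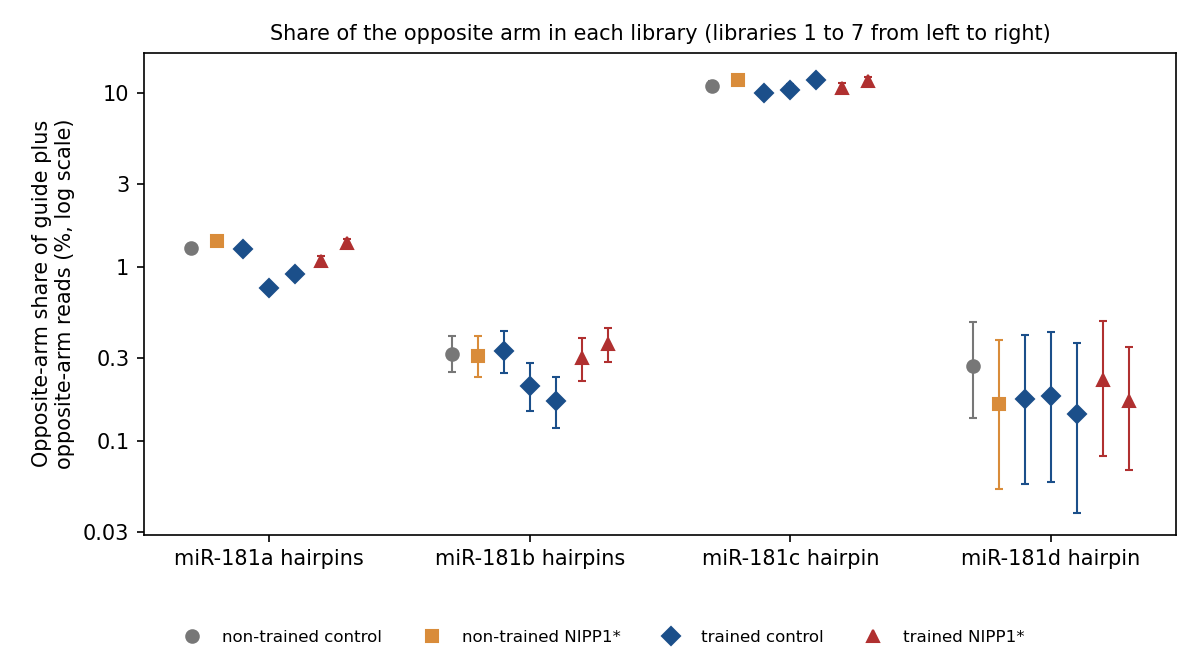
Share of the opposite arm in the summed guide and opposite-arm reads, in percent on a log scale (y axis), for the hairpins of each guide (x axis), with libraries 1 to 7 from left to right and exact binomial 95% intervals as bars. The miR-181c hairpin sits between 9.95% and 11.9%, and libraries 4 and 5 are the lowest for miR-181a and for miR-181b.

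The opposite arms also differ between the copies, so unlike the guides they can be read by hairpin. Over the 7 libraries there were 7780 reads of miR-181a-1*, from chromosome 1, and 2 reads of miR-181a-2*, from chromosome 2, which is a share of 0.0257% (exact binomial 95% interval 0.00311% to 0.0928%). miR-181a-2* had no read in 5 libraries, and in library 1 a count of 0 against 1236 reads of miR-181a-1* allows a share of up to 0.243% by the limit of 3 reads, and of up to 0.298% by the exact interval. The window that the files give for miR-181a-2* starts 3 bases behind the RefSeq mature sequence, unlike the windows of the other products, which start at the same base. Whether that window lost reads from the mature 5′ end was not tested, so the count and shares of miR-181a-2* hold for the window only. The window of miR-181b-1* is 19 bases long, against 21 in RefSeq. For miR-181b there were 355 reads of miR-181b-1* and 38 of miR-181b-2*, a share of 9.67% (6.93% to 13%) for chromosome 2. miR-181d* had 43 reads in all, between 4 and 11 in a library. Counts of opposite arms do not give the share of guide reads that each copy makes, as the arms can be kept to different degrees.

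Whether training changed the family in control mice was tested with limma on log2(RPM + 0.5), with the 7 libraries in one model. Tested were 476 miRNAs that averaged 10 or more reads per library, among them all 4 guides. Of the 4 guides, 0 passed a Benjamini-Hochberg adjusted p under 0.05, and 0 of the 476 miRNAs did (0%). Without adjustment, the limma test put 5.88% of all miRNAs under 0.05, among them 1 guide, miR-181d.

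miR-181d had a log2 fold change of −0.39 in trained against non-trained controls (95% interval −0.78 to −0.0016, limma adjusted p = 0.666), with 345 RPM ± 14 (SD, n = 3) against 453 RPM in the single non-trained library. All 3 trained control libraries lay below it, as for 37.4% of the 476 miRNAs. With the trained libraries grouped as in the deposited tables, the log2 fold change of miR-181d was −0.22 (limma adjusted p = 0.994). Both oligodendrocyte markers, miR-338-3p and miR-219-5p, lay below library 1 in all 3 trained control libraries too. miR-338-3p had 4788 RPM in library 1, 3834 RPM in library 2, 2757 to 3290 RPM in libraries 3 to 5 and 4104 to 4348 RPM in libraries 6 and 7. miR-219-5p, far rarer, had 20 and 10.8 RPM in libraries 1 and 2, 9.09 to 11.6 RPM in libraries 3 to 5 and 19 to 26.7 RPM in libraries 6 and 7. Their log2 fold changes in trained against non-trained controls were −0.68 (limma adjusted p = 0.583) and −0.96 (limma adjusted p = 0.666), both under 0.05 without adjustment. Their part in the values of miR-181d was not tested. In bulk tissue, fewer cells of a type and less RNA per cell cannot be told apart.

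For the other guides the log2 fold changes with training in controls were 0.21 ± 0.25 (SE) for miR-181a, −0.10 ± 0.20 for miR-181b and −0.22 ± 0.20 for miR-181c, with limma adjusted p between 0.719 and 0.849. The 95% interval for miR-181a ran from −0.37 to 0.80 and that for miR-181c from −0.68 to 0.25. The value for miR-181a moved to 0.40 without trained control replicate 1 (library 3, as replicates are numbered here in library order), to 0.14 without replicate 2 and to 0.09 without replicate 3, and that for miR-181c to −0.34 without replicate 1 and −0.14 without replicate 3. miR-181b gave 0.04 without replicate 1 and −0.22 without replicate 3. Under the tables' grouping the values were 0.05 for miR-181a, −0.12 for miR-181b and −0.10 for miR-181c. The median of the 4 guides was −0.16, beside −0.09 over all miRNAs tested.

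In NIPP1* mice, training was compared over libraries 6 and 7 against the single library 2. By the limma test 0 of 4 guides and 0% of all miRNAs passed, with 0 guides and 4.41% of all miRNAs at an unadjusted p under 0.05. The log2 fold changes were 0.08 ± 0.26 (SE) for miR-181a, 0.08 ± 0.22 for miR-181b, −0.19 ± 0.21 for miR-181c and 0.05 ± 0.17 for miR-181d. Without trained NIPP1* replicate 1 they were −0.05 for miR-181a, 0.05 for miR-181b and 0.13 for miR-181d, and without replicate 2 they were 0.21, 0.12 and −0.03. Under the tables' grouping they were 0.24 for miR-181a, 0.11 for miR-181b, −0.31 for miR-181c and −0.12 for miR-181d. Both trained libraries lay above library 2 for miR-181b, as for 30.7% of all miRNAs, and below it for miR-181c, as for 39.5%. The median over the guides was 0.06, beside −0.03 over all miRNAs.

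The trained genotypes, the only groups with more than 1 library each, were compared next. Again 0 of 4 guides and 0% of all miRNAs passed the limma test, with 0 guides and 7.14% of all miRNAs at an unadjusted p under 0.05. miR-181a had 11165 RPM ± 1393 (SD, n = 2) in trained NIPP1* and 12640 RPM ± 2734 (SD, n = 3) in trained control, a log2 fold change of −0.16 (95% interval −0.62 to 0.30). miR-181b differed by −0.02 (−0.41 to 0.36) and miR-181c by 0.11 (−0.25 to 0.48). The value for miR-181a was −0.35 without trained control replicate 1, −0.09 without replicate 2 and −0.04 without replicate 3, and −0.29 without trained NIPP1* replicate 1 and −0.03 without replicate 2. That for miR-181c ran from 0.04 without trained control replicate 3 to 0.24 without replicate 1.

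miR-181d was the guide whose trained groups did not overlap, with 389 RPM ± 32 (SD, n = 2) in trained NIPP1* and 345 RPM ± 14 (SD, n = 3) in trained control. Of the 476 miRNAs, 18.7% were higher in both NIPP1* libraries than in every trained control library. The log2 fold change of miR-181d was 0.17 (95% interval −0.14 to 0.48, limma adjusted p = 0.709), and 0.09 without trained NIPP1* replicate 2. Both oligodendrocyte markers were likewise higher in both NIPP1* libraries than in every trained control library. Their log2 fold changes were 0.50 for miR-338-3p (limma adjusted p = 0.435) and 1.13 for miR-219-5p (limma adjusted p = 0.331), both under 0.05 without adjustment. The red blood cell markers did the same, miR-451 with 119.6 and 229.3 RPM against 57.2 to 114.9 RPM. For miR-144 it was 12.5 and 21.6 RPM against 4.35 to 10.6 RPM. So did miR-124, miR-138 and miR-142-5p, while miR-128 and miR-223 were lower in both NIPP1* libraries. The other markers listed below overlapped. Their part in the values of miR-181d was not tested here either. If the trained libraries are grouped as in the deposited tables, the directions of all 4 guides turn, with 0.16 for miR-181a and −0.17 for miR-181d.

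Among the opposite arms that averaged 10 or more reads, miR-181c* and miR-181b-1* were also higher in both trained NIPP1* libraries than in every trained control library, and miR-181a-1* was not. The margin was narrow for miR-181c*, with 95.40 RPM in the lower NIPP1* library and 95.36 RPM in the highest control library. miR-181b-1* had 6.18 and 7.29 RPM against 4.19 to 5.73 RPM, which rests on 35 to 73 reads a library. In the limma model its log2 fold change was 0.46 ± 0.22 (SE, adjusted p = 0.659). All 3 of these opposite arms lay below library 1 in the trained control libraries, as did 37.4% of the 476 miRNAs.

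Averaged over both genotypes, trained against non-trained mice gave log2 fold changes of 0.15 for miR-181a, −0.01 for miR-181b, −0.20 for miR-181c and −0.17 for miR-181d. Averaged over both training states, NIPP1* against control gave −0.09, −0.12, 0.10 and −0.05 in the same order. With 1 trained library left out, the first comparison ran from 0.08 to 0.24 for miR-181a, and the second from −0.19 to −0.03 for miR-181a, from −0.18 to −0.06 for miR-181b, from 0.07 to 0.17 for miR-181c and from −0.09 to −0.0074 for miR-181d. The lower values of miR-181a and miR-181b and the higher one of miR-181c in the second comparison came without trained control replicate 1. Under the tables' grouping the second comparison gave 0.07 for miR-181a, −0.09 for miR-181b, −0.01 for miR-181c and −0.22 for miR-181d (limma adjusted p = 0.72). In neither comparison did any guide or any of the 476 miRNAs pass the limma test (0% in both), and no guide had an unadjusted p under 0.05, beside 3.36% and 1.26% of all miRNAs.

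The difference of the training effect between the genotypes was tested as an interaction. For miR-181d it was 0.44 on the log2 scale (95% interval −0.13 to 1.01, limma adjusted p = 0.72), where trained control libraries lay below their non-trained library and trained NIPP1* libraries on either side of theirs. It was −0.13 for miR-181a, 0.19 for miR-181b and 0.02 for miR-181c. Leaving out 1 trained library moved it between −0.32 (without trained control replicate 1) and −0.0051 (without trained NIPP1* replicate 2) for miR-181a, and between 0.05 and 0.30 (without trained control replicates 1 and 3) for miR-181b. Under the tables' grouping it was 0.10 for miR-181d, 0.19 for miR-181a, 0.23 for miR-181b and −0.21 for miR-181c. None of the guides and 0% of all miRNAs passed, and 7.77% of all miRNAs had an unadjusted p under 0.05. The median interaction was 1.41 for the oligodendrocyte markers and 2.09 for the red blood cell markers. It was 0.03 for neuron, −0.01 for blood vessel, −0.34 for choroid plexus and −0.47 for leukocyte and microglia markers. Their part in the value of miR-181d was not tested. These comparisons share libraries, so their values are not independent of each other.

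**Figure D4:**
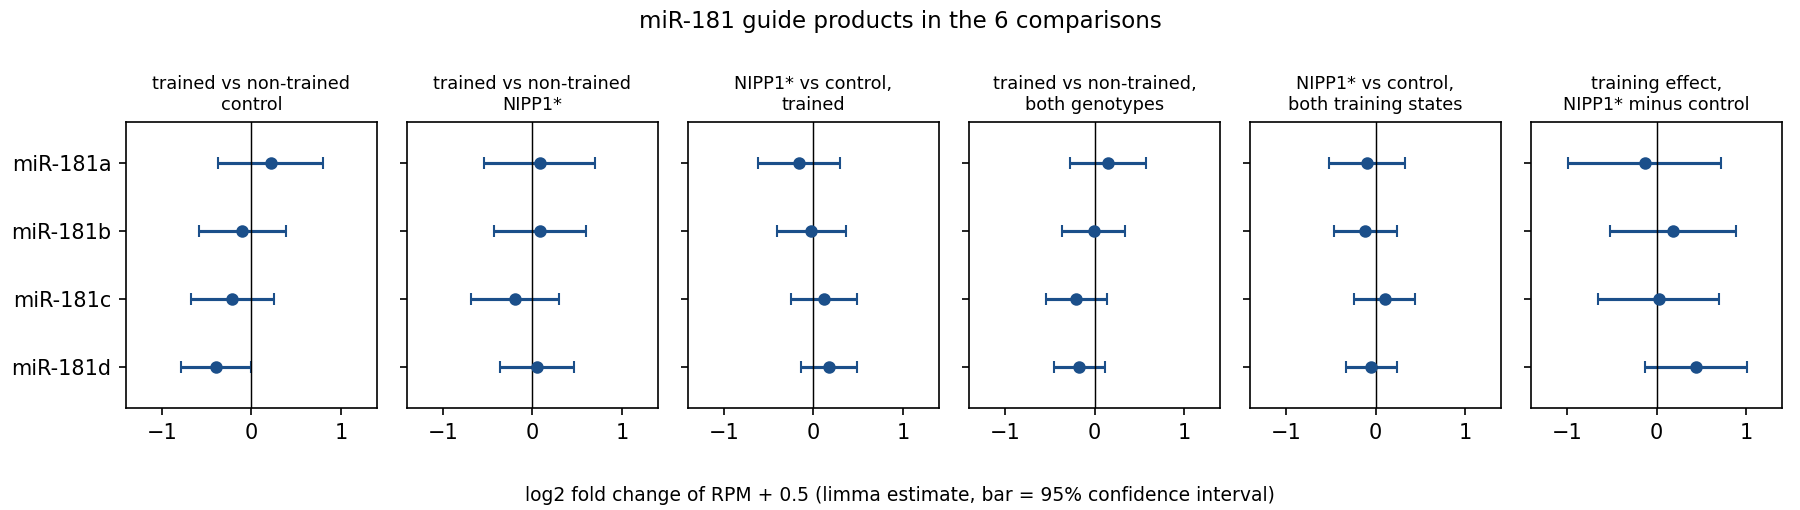
Log2 fold change of RPM + 0.5 (x axis) of the 4 guide products (y axis) in the 6 comparisons of the limma model, with points for the estimates and bars for the 95% confidence intervals. Each interval spans 0 but that of miR-181d in trained against non-trained controls, which ends at −0.0016.

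Whether PP1 inhibition alone moved the family rests on libraries 1 and 2, with 1 library per group and no replicate check of the difference. It was described by ratios and was not tested. The log2 ratio of NIPP1* to control was −0.03 for miR-181a (95% interval −0.04 to −0.01), −0.21 for miR-181b (−0.24 to −0.18), 0.09 for miR-181c (0.05 to 0.14) and −0.27 for miR-181d (−0.34 to −0.20). The intervals are exact conditional binomial ones of the reads and cover counting error only. No guide (0 of 4) had a log2 ratio of 1 or more in either direction, beside 0.932% of the 322 miRNAs that averaged 100 or more reads in these libraries. All 4 ratios lay between the 10th and the 90th percentile of those miRNAs, −0.32 and 0.33. Among the opposite arms, miR-181a-1* had a log2 ratio of 0.12 and miR-181c* one of 0.22, both above that of their guide. miR-181b-1* had one of −0.20 on 67 and 53 reads, close to that of miR-181b. miR-181d* and miR-181b-2*, with 11 reads or fewer in either library, had log2 ratios of −1.0 and −1.16 with intervals that span 0, and miR-181a-2* had no read in either.

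The miRNAs outside the family whose levels ran most like the family sum over the 7 libraries were miR-672, miR-151-3p and miR-139-3p, out of 313 that averaged 100 or more reads. Over the 7 libraries Pearson's r on log2(RPM + 0.5) was 0.99, 0.96 and 0.95, and Spearman's rho 1, 0.96 and 0.89. These describe 7 points that share libraries and depth, and were picked as the highest of many. miR-672 had 194 and 226 RPM in libraries 4 and 5 and 127 to 164 RPM in the rest. miR-151-3p stood at 1122 and 1134 RPM in libraries 4 and 5 and at 604 to 841 RPM in the other 5. miR-139-3p stood at 97.6 and 106 RPM there and at 52.9 to 68.4 RPM in the rest. Libraries 4 and 5 were thus the highest for all of them, as for miR-181a. The family sum by which they were picked is also highest there, so this follows from the choice and is no separate observation.

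Markers of the cell types of the tissue were read in the same libraries. The neuron markers miR-124, miR-128, miR-138 and miR-132 summed to between 64877 RPM in library 1 and 80577 RPM in library 5, most of it miR-128, which reached 71940 RPM in library 5. miR-124 and miR-138 were instead lowest in library 5, at 3637 and 4689 RPM. Blood vessel markers (miR-126-3p, miR-126-5p, miR-143 and miR-145) were highest in libraries 4 and 5, at 17674 and 18452 RPM, against 14791 to 17204 RPM in the rest. Within that list miR-143 and miR-145 were highest there and miR-126-3p and miR-126-5p lowest. Oligodendrocyte markers, at 2766 and 2970 RPM, and red blood cell markers, at 61.9 and 62.3 RPM, were lowest in these 2 libraries, with 3299 to 4808 RPM and 85 to 251 RPM in the rest. These sums were mostly miR-338-3p and miR-451. The rarer members did not follow, as miR-219-5p was lowest in library 3 and miR-144 lowest in library 2, at 3.72 RPM against 4.67 and 4.35 RPM in libraries 4 and 5.
Leukocyte and microglia markers lay between 1158 and 1654 RPM. Within that list miR-150 was highest in libraries 4 and 5, at 443.5 and 422.4 RPM against 265.3 to 344.3 RPM. miR-142-3p was lowest there, at 357 and 370.8 RPM against 455.6 to 535.7 RPM, and the rest of the list did neither. Choroid plexus markers lay between 400.4 and 1154 RPM, with libraries 4 and 5 at 493 and 400.4 RPM and library 7 at 481 RPM. Of the choroid plexus markers, miR-211 had at most 0.27 RPM in a library. No marker of any list passed the limma test in any of the 6 comparisons, as for the 476 miRNAs as a whole. The part of these cell types in the levels of miR-181a and miR-181c in libraries 4 and 5 was not tested.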

How the data were processed

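Small RNA libraries of 7 pooled hippocampal samples were analysed. The authors trimmed adaptors and mapped inserts between 19 and 26 nt to mm9 with Bowtie, within ncPRO-seq. The unit of the deposited locus values is a percent, relative to all miRNA reads of that library (the submitters' processing notes also name CASAVA 1.7.0 and bedtools). The methods speak of uniquely mapping reads, while copies of a sequence carry its reads each, so copies were averaged. The signal in the deposited comparison tables is the authors' group mean of reads divided by size factors. It served to name sequences (476 of 476 with a mean of at least 10 reads) and to check the trained groups. Unused were 2 further value columns, and the authors' fold changes and p-values were not used either.

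The step between low values gave back whole reads (100% of values up to 100 reads whole within 0.15 read). limma (lmFit, contrasts, eBayes with trend) was run on log2(RPM + 0.5), a scale that understates changes of low miRNAs, with 1 mean per group, so the single non-trained libraries take the spread of the trained ones. It was also run on simulated data, with an outcome that is not given here and on which no value above rests. The count test of edgeR on recovered reads, an alternative, called 0 miRNAs in each of the 6 comparisons, and DESeq2 between 0 and 2. Further alternatives were TMM scaling, read minimums of 1 and 100, pseudocounts of 0.1 and 1, only the groups compared, leaving out each library and the tables' grouping. The text names the 4 guides, all opposite arms, the 3 most similar miRNAs and lists of 4 neuron, 2 oligodendrocyte, 6 leukocyte and microglia, 4 blood vessel, 3 red blood cell and 3 choroid plexus markers, of which miR-486 and miR-448 were not matched under those names. The family members and all lists were chosen with earlier results of these data known. Confidence levels are 95%. Tools were Python 3.11.15 with pandas 2.3.3, scipy 1.17.1 and numpy 2.4.6, and R 4.3.3 with DESeq2 1.42.0, edgeR 4.0.16 and limma 3.58.1.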

Additional observations from a re-analysis of the deposited data

How the results depend on the processing

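The count of guides called was 0 in all 6 comparisons under every setting that gave a value, and the lowest adjusted p of a guide in any setting was 0.136. Estimates near 0 changed sign. For miR-181b, trained against non-trained controls gave 0.0078 by edgeR, 0.013 by DESeq2 and −0.22 to 0.035 with a library left out (positive without trained control replicate 1). Training over both genotypes gave 0.035 with TMM scaling, 0.058 by edgeR, 0.069 by DESeq2 and −0.066 to 0.0601 with a library left out. Between the trained genotypes it ran from −0.16 to 0.093 with a library left out. Training in NIPP1* mice ran from −0.047 to 0.21 for miR-181a and from −0.035 to 0.13 for miR-181d without 1 of the trained libraries. The interaction of miR-181c gave −0.0081 with TMM scaling, −0.055 by edgeR, −0.041 by DESeq2 and −0.0497 to 0.15 with a library left out.

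Under the tables' grouping, trained NIPP1* against trained control gave 0.16 for miR-181a, 0.024 for miR-181b, −0.11 for miR-181c and −0.17 for miR-181d. Training in NIPP1* mice gave −0.12 for miR-181d, NIPP1* against control over both training states 0.066 for miR-181a, −0.011 for miR-181c and −0.22 for miR-181d, and the interaction 0.19 for miR-181a and −0.21 for miR-181c. Summing copies in place of averaging gave 23283 RPM for miR-181a and 4718 RPM for miR-181b, since each copy carries all reads. The non-trained libraries could not be left out of the comparisons that need them. No paired analysis was possible because the labels carry no replicate numbers shared between groups, and those used here only follow library order. The cause of the sign changes was not tested. Single non-trained libraries and 2 or 3 trained ones limit what could be detected.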
